A study of Sus scrofa with 12 samples.

Results

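The synaptonemal complex genes code for the proteins of the meiotic chromosome axes and of the structure that joins paired axes. They were taken by symbol from the table of coding genes, with the members SYCP1, SYCP2, SYCP3, SYCE1, SYCE2, SYCE3, TEX12, HORMAD1, HORMAD2 and SMC1B. Of these 10 symbols, 9 were found among the 21674 genes of the table, and HORMAD2 was not analysed here. In meiotic prophase each chromosome folds into loops along an axis of cohesin and axis proteins, and the axes of paired chromosomes are then held side by side by transverse filaments and a central element. HORMA domain proteins mark axes that are not yet joined and leave them as the central element forms. In the testis this happens in primary spermatocytes, which appear as the seminiferous tubules mature.

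Testis RNA was sequenced from boars of the Chinese Hezuo breed (HZ) and of the Landrace breed (LC), to compare testis gene expression between ages and breeds. The 4 groups were HZ boars at 30 days (Ha), HZ boars at 120 days (Hb), LC boars at 30 days (La) and LC boars at 120 days (Lb), with 3 boars and 3 libraries each. The testes were obtained by castration, and each library holds RNA of all testis cells after removal of ribosomal RNA. The summed estimated counts over the coding genes ranged from 22538417 to 23758931 in Ha, from 17165519 to 22707568 in Hb, from 18523274 to 23563949 in La and from 18998959 to 23253496 in Lb.

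The estimated counts summed over the 9 members were 1254, 1416 and 1035 in the Ha libraries and 6833, 7517 and 5263 in the Hb libraries. In LC boars these counts were 550, 435 and 606 in La and 6714, 5795 and 5816 in Lb. The counts of some members were small at 30 days, from 5 to 10 for SYCE3 and from 0 to 55.88 for SYCE1, which limits the precision of their fold changes, whereas SMC1B had from 228 to 599. Levels are given in FPKM (mapped fragments scaled by gene length and by library size), in the order of replicates 1, 2 and 3, and group values as mean ± SD over the 3 libraries. Means are said to lie within their spread where their ranges of 1 SD on each side meet. Fold changes are log2 ratios of the second group over the first from edgeR, with their standard error (SE). A gene was called at an edgeR p adjusted over all genes tested of under 0.05 and a log2 fold change beyond 1 in either direction. An exact permutation test of 3 against 3 libraries cannot give a two-sided p under 0.1, so none is given for levels and ratios.

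The germ line markers DDX4, DAZL and MAEL were detected in each group, as were the Sertoli and Leydig cell markers of a testis. The summed level of the 3 germ line markers was 48.37, 47.19 and 38.26 FPKM in Ha, 297.65, 276.98 and 266.76 FPKM in Hb, 19.08, 20.38 and 21.29 FPKM in La, and 239.93, 225.42 and 245.42 FPKM in Lb. The germ line sum was lowest in La and higher in each library of 120 days than in any of 30 days. The members' name covers several structures: SMC1B is a cohesin subunit and HORMAD1 leaves the joined axes, so neither is a part of the central structure itself.

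The comparison of 30 and 120 days within a breed asks how the members differ between the younger and the older testis. Between Ha and Hb, 9 of 9 members were called and higher in Hb, where 28.2% of the 16548 genes tested were called higher. In La vs Lb, 9 of 9 members were called and higher in Lb, where 27.5% of 16637 genes were called higher. The median log2 fold change of the members was 3.40 between Ha and Hb, beside -0.02 over all genes tested. In LC boars it was 4.44, beside 0.01 over all genes tested. In bulk samples fewer cells of a type and less RNA per cell cannot be told apart, which holds for each difference given here. By FPKM, the libraries of Ha and Hb did not overlap for 8 of 9 members, with TEX12 as the exception, and those of La and Lb for 9 of 9. By CPM (counts scaled by library size times a normalisation factor, TMM) it was 9 of 9 in each breed. The TMM factor was 1.10 in Ha3 and 0.884 in Hb3, the libraries in which TEX12 overlapped by FPKM. Counts scaled by library size alone were not compared. Over all genes tested, the older libraries were wholly above the younger by FPKM for 30.0% in HZ boars and 32.4% in LC boars, and by CPM for 38.6% in each. SYCE1 and SYCE3 passed the filter on low counts only with the help of the 120-day libraries, so their tests depended on those libraries. Of the 7 members that passed on the 30-day libraries alone, 7 were called higher in each breed. The members were chosen as meiotic genes, so their common direction is given as a description.

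**Figure D1:**
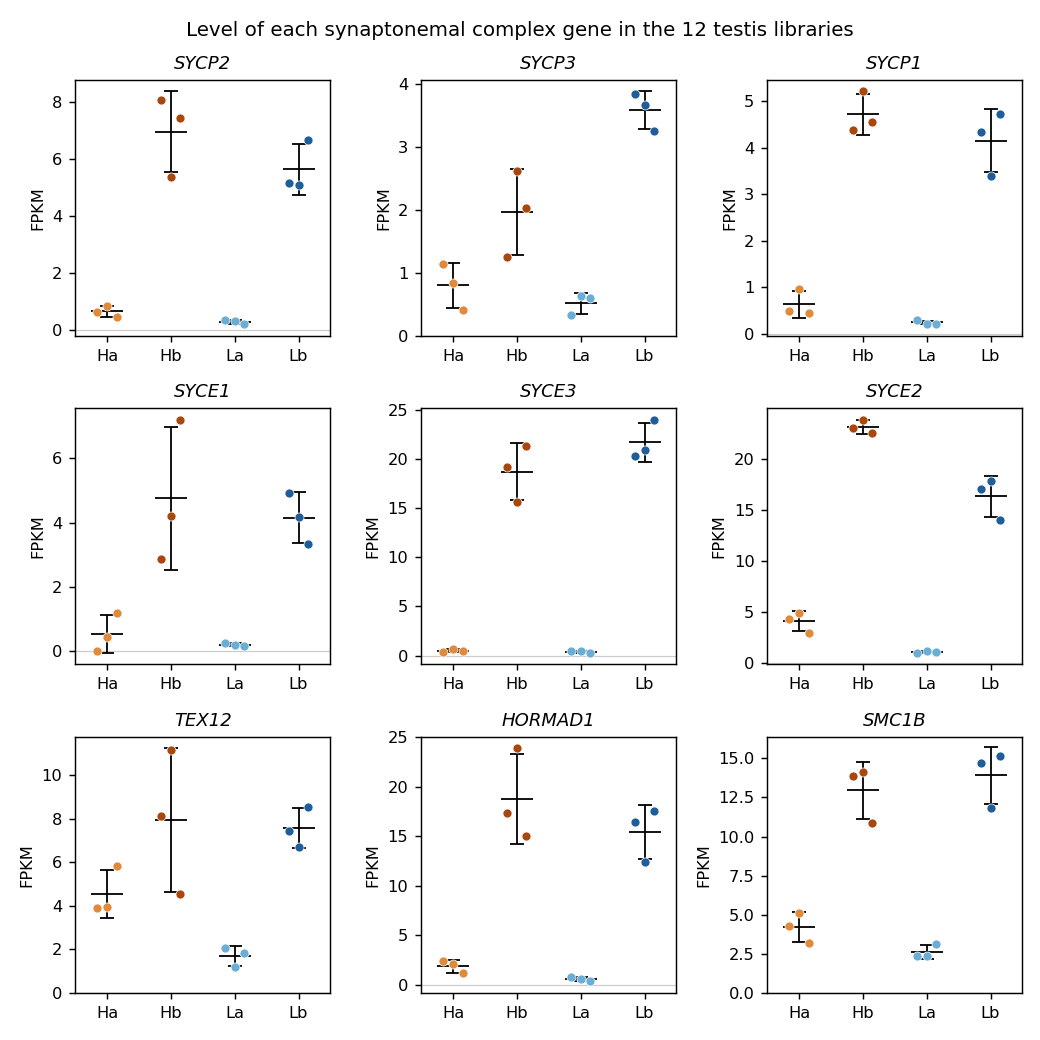
Level of each of the 9 members in FPKM (vertical axes) in the 12 libraries by group (horizontal axes), with points for libraries and bars for the mean ± SD of 3. SYCE3 lies at or under 0.64 FPKM in the 6 libraries of 30 days and at or above 15.60 FPKM in the 6 libraries of 120 days.

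SYCP2 codes for a protein of the lateral elements, the chromosome axes as they appear in the assembled complex, and lies on chromosome 17 from 59875992 to 59962314 (Sscrofa11.1). SYCP2 stood at 0.64, 0.86 and 0.48 FPKM in Ha, 8.06, 5.36 and 7.42 FPKM in Hb, 0.35, 0.34 and 0.21 FPKM in La, and 5.16, 5.08 and 6.66 FPKM in Lb. Each library of 120 days was above each library of 30 days, the La libraries were below the Ha libraries, and the Hb and Lb libraries overlapped. For Ha vs Hb the log2 fold change of SYCP2 was 3.76 (SE 0.29), with an edgeR adjusted p of 3.22e-05. From La to Lb it was 4.62 (SE 0.21), with an adjusted p of 4.32e-07. Its group levels ran from Lb at 5.63 ± 0.890 to Hb at 6.95 ± 1.41 FPKM at 120 days, a pair that did not differ beyond their spread.

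SYCP3 codes for the partner of SYCP2 in the lateral elements and lies on chromosome 5 from 82492744 to 82501068. SYCP3 stood at 1.14, 0.85 and 0.42 FPKM in Ha, 1.26, 2.63 and 2.03 FPKM in Hb, 0.33, 0.63 and 0.60 FPKM in La, and 3.85, 3.67 and 3.26 FPKM in Lb. The Lb libraries were the highest and did not overlap with Hb, whereas Ha and La overlapped, and Hb1 lay close to Ha1. The log2 fold change was 1.78 (SE 0.46) in Ha vs Hb, with an edgeR adjusted p of 0.0105. In LC boars SYCP3 rose by 3.10 (SE 0.33) on the log2 scale, with an adjusted p of 5.64e-05. With limma on log2 of FPKM plus 1, the log2 difference of SYCP3 in Ha vs Hb was 0.71, under the threshold of 1.

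A pair of genes on the X chromosome is described in the table as SYCP3-like, and reads shared with SYCP3 were not tested. LOC100154655 lies from 124078500 to 124089002 and LOC100622897 from 124048096 to 124060530, and both had estimated counts that were not whole numbers in 12 of 12 libraries. Such counts were found in 11 libraries for SYCP3, but also in 12 for SYCP2, 11 for SYCE1, 10 for SYCE2, 9 for HORMAD1 and 6 for SYCE3, so they do not set SYCP3 apart. LOC100154655 stood at 3.53, 2.88 and 1.90 FPKM in Ha, 1.86, 4.25 and 2.68 FPKM in Hb, 1.20, 1.02 and 1.55 FPKM in La, and 2.64, 3.76 and 4.40 FPKM in Lb. LOC100622897 stood at 3.3, 4.47 and 2.94 FPKM in Ha, 2.16, 5.24 and 2.97 FPKM in Hb, 1.99, 1.3 and 1.86 FPKM in La, and 3.84, 3.29 and 4.51 FPKM in Lb. For both X-linked genes Ha and Hb overlapped, whereas the Lb libraries were above the La libraries. SYCP3 made up 10.9 ± 3.19% of the summed FPKM of the 3 genes in Ha, 24.0 ± 2.37% in Hb, 15.2 ± 5.99% in La and 32.8 ± 5.39% in Lb.

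The X-linked genes were called higher in Lb than in La, at log2 fold changes of 1.83 for LOC100154655 and 1.48 for LOC100622897. They were not called in Ha vs Hb, where the log2 fold changes were 0.54 and 0.42. When the counts of the 3 genes were summed before the fit, a setting added after the values were seen, the sum was not called in Ha vs Hb, at a log2 fold change of 0.66 (SE 0.29) and an edgeR adjusted p of 0.0784. In LC boars the sum rose by 1.93 (SE 0.18) on the log2 scale, with an adjusted p of 2.64e-05. In Ha vs La the sum fell by 1.01 (SE 0.22) on the log2 scale, with an adjusted p of 0.0177, whereas SYCP3 alone was not called there.

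SYCP1 codes for the transverse filament, the rod that reaches from each lateral element to the middle, and lies on chromosome 4 from 105592354 to 105730413. SYCP1 stood at 0.50, 0.96 and 0.44 FPKM in Ha, 4.39, 5.21 and 4.55 FPKM in Hb, 0.29, 0.22 and 0.22 FPKM in La, and 4.33, 3.40 and 4.72 FPKM in Lb. All 6 libraries of 120 days lay above the 6 of 30 days, La lay below Ha, and Hb and Lb overlapped by FPKM. The log2 fold change of SYCP1 was 3.40 (SE 0.32) in Ha vs Hb, with an edgeR adjusted p of 8.84e-05. For La vs Lb the value was 4.44 (SE 0.25), with an adjusted p of 1.22e-06. Its estimated counts were whole numbers, within 0.005, in the 12 libraries.

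The central element is the ladder-like middle of the complex, and SYCE1 and SYCE3 code for the proteins that start it on the ends of the SYCP1 filaments. SYCE1 lies on chromosome 14 from 141726708 to 141737830. SYCE1 stood at 0, 0.44 and 1.18 FPKM in Ha, 2.87, 4.19 and 7.20 FPKM in Hb, 0.24, 0.19 and 0.16 FPKM in La, and 4.93, 4.18 and 3.34 FPKM in Lb. The Ha libraries spanned the La range, Hb and Lb overlapped, and each library of 120 days was above each of 30 days. The log2 fold change of SYCE1 in Ha vs Hb was 3.61 with an SE of 1.03, the widest among the members, and an edgeR adjusted p of 0.0157. This call was lost without Ha replicate 2, at an adjusted p of 0.0562, and without Hb replicate 3, at 0.0513. In LC boars SYCE1 rose by 4.72 (SE 0.32) on the log2 scale, with an adjusted p of 3.73e-06. Only 2 Ha libraries and 1 La library reached the count level of the filter, so these calls rest on the 120-day libraries.

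SYCE1 lies wholly within the annotated lncRNA gene LOC100514924, over 11123 bases, and the libraries were strand-specific, but whether the counting used the strand was not stated. The summed level of 3 transcripts of LOC100514924 was 10.46, 8.42 and 8.0 FPKM in Ha, 5.09, 8.35 and 8.38 FPKM in Hb, 6.95, 6.72 and 6.76 FPKM in La, and 6.01, 7.14 and 6.48 FPKM in Lb. The lncRNA did not follow the order of SYCE1, as its group means were 8.96 ± 1.32 FPKM in Ha, 7.27 ± 1.89 in Hb, 6.81 ± 0.123 in La and 6.54 ± 0.568 in Lb. Reads shared between the 2 genes were not tested.

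SYCE3 lies on chromosome 5 from 168908 to 201037. SYCE3 stood at 0.38, 0.64 and 0.44 FPKM in Ha, 19.14, 15.60 and 21.31 FPKM in Hb, 0.42, 0.42 and 0.28 FPKM in La, and 20.23, 20.89 and 23.95 FPKM in Lb. It was low in the libraries of 30 days, which overlapped between breeds, and among the most abundant members at 120 days, where Hb and Lb overlapped too. For Ha vs Hb the log2 fold change of SYCE3 was 5.68 (SE 0.32), with an edgeR adjusted p of 8.93e-06. Between La and Lb it was 6.22 (SE 0.26), with an adjusted p of 2.52e-07. These were the highest values among the members in each age comparison, and they start from 7 to 10 counts per library in Ha and 5 to 5.99 in La. As 1 Ha library and 0 La libraries reached the count level of the filter, SYCE3 was tested through the libraries of 120 days, and its calls there add no support.

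SYCE2 and TEX12 code for the partners that form the long fibres along the central element. SYCE2 lies on chromosome 2 from 66118439 to 66133454. SYCE2 stood at 4.34, 4.92 and 2.98 FPKM in Ha, 23.01, 23.85 and 22.57 FPKM in Hb, 0.99, 1.19 and 1.10 FPKM in La, and 17.11, 17.84 and 14.06 FPKM in Lb. For SYCE2 the 4 groups did not overlap, in the order La, Ha, Lb and Hb. The log2 fold change was 2.99 (SE 0.22) in Ha vs Hb, with an edgeR adjusted p of 2.64e-05. In LC boars SYCE2 rose by 4.21 (SE 0.20) on the log2 scale, with an adjusted p of 5.13e-07. The gene shares 2301 bases with GCDH, a mitochondrial dehydrogenase gene, whose mean level was 9.0 FPKM in Ha, 2.51 in Hb, 11.07 in La and 3.92 in Lb. GCDH was called lower at 120 days, with log2 fold changes of -1.19 in HZ and -1.14 in LC boars.

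TEX12 lies on chromosome 9 from 39864093 to 39869572. TEX12 stood at 3.89, 3.93 and 5.83 FPKM in Ha, 8.11, 11.16 and 4.53 FPKM in Hb, 2.06, 1.20 and 1.83 FPKM in La, and 7.45, 6.68 and 8.51 FPKM in Lb. Hb3 was below Ha3, so the HZ groups overlapped by FPKM, whereas each Lb library was above each La library. The log2 fold change of TEX12 in Ha vs Hb was 1.28 (SE 0.34), with an edgeR adjusted p of 0.0121. This call was lost without Hb replicate 2, at a log2 fold change of 0.996, and with limma on log2 of FPKM plus 1 or plus 0.1, at adjusted p of 0.0877 and 0.0863. In LC boars TEX12 rose by 2.45 (SE 0.25) on the log2 scale, with an adjusted p of 4.83e-05. TEX12 shares 5437 bases with BCO2, a carotenoid oxygenase gene, which was not called in either age comparison, at log2 fold changes of -0.53 and 0.38.

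The level of TEX12 over that of SYCE2 was 1.22 ± 0.642 in Ha, 0.340 ± 0.134 in Hb, 1.58 ± 0.541 in La and 0.472 ± 0.120 in Lb, as a ratio of FPKM. TEX12 was thus near or above its partner at 30 days and under it at 120 days. The level of SYCP3 over that of its partner SYCP2 was 1.21 ± 0.494 in Ha, 0.307 ± 0.170 in Hb, 1.88 ± 0.958 in La and 0.653 ± 0.142 in Lb, with the limit on SYCP3 given above.

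HORMAD1 codes for a HORMA domain protein that binds unjoined axes and is needed for break formation and for the check on pairing. HORMAD1 lies on chromosome 4 from 98447298 to 98469650. HORMAD1 stood at 2.39, 2.11 and 1.14 FPKM in Ha, 17.39, 23.90 and 15.03 FPKM in Hb, 0.74, 0.61 and 0.35 FPKM in La, and 16.46, 12.39 and 17.58 FPKM in Lb. Each La library was below each Ha library, the Hb and Lb libraries overlapped by FPKM, and the 2 ages were far apart in both breeds. The log2 fold change of HORMAD1 was 3.80 (SE 0.30) in Ha vs Hb, with an edgeR adjusted p of 3.66e-05. In LC boars it was 5.07 (SE 0.28), with an adjusted p of 1.16e-06. The level of HORMAD1 over that of TRIP13, the ATPase that takes HORMA proteins off the axes, was 0.141 in Ha, 1.02 in Hb, 0.0443 in La and 1.14 in Lb as a mean ratio of FPKM.

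SMC1B codes for the meiotic form of a cohesin subunit, which holds sister chromatids together along the axis, and lies on chromosome 5 from 3976098 to 4067148. SMC1B stood at 4.25, 5.13 and 3.22 FPKM in Ha, 13.89, 14.14 and 10.84 FPKM in Hb, 2.33, 2.38 and 3.12 FPKM in La, and 14.71, 11.84 and 15.17 FPKM in Lb. The La libraries were just below the Ha libraries, with 3.12 FPKM in La3 and 3.22 FPKM in Ha3, and Hb and Lb overlapped. For Ha vs Hb the log2 fold change of SMC1B was 2.12 (SE 0.21), with an edgeR adjusted p of 0.0001. From La to Lb it was 2.72 (SE 0.16), with an adjusted p of 1.77e-06. SMC1B over SMC1A, the form of dividing somatic cells, was 0.388 ± 0.0777 in Ha, 3.10 ± 0.552 in Hb, 0.221 ± 0.0370 in La and 2.58 ± 0.295 in Lb as a ratio of FPKM.

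SMC1B shares 1756 bases with FAM118A, which was called higher at 120 days, at log2 fold changes of 2.37 in HZ boars and 2.28 in LC boars. SYCP3 shares 144 bases with CHPT1, a choline phosphotransferase gene, which was called lower in Hb than in Ha at a log2 fold change of -1.87 and not called in La vs Lb at -0.85. SYCP2 shares 339 bases with LOC110257473, a lncRNA gene listed at 0 in the 12 libraries. SMC1B also holds 5941 bases of the pseudogene LOC110260810, for which no level was found. What these overlaps add to the members' counts was not tested.

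**Figure D2:**
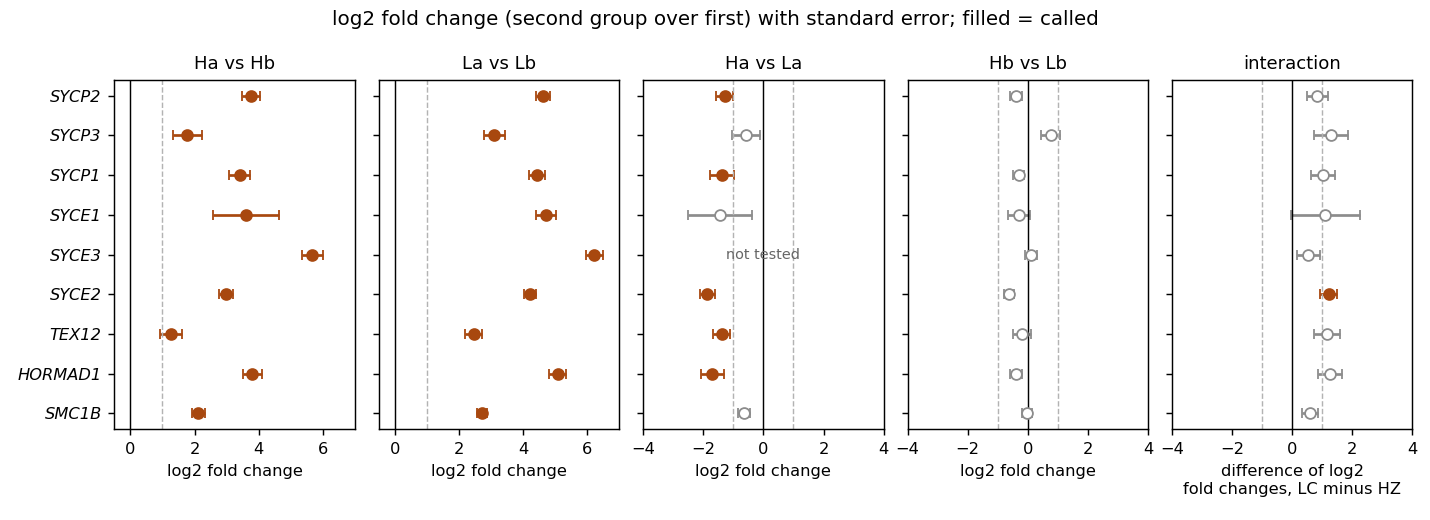
Log2 fold change (horizontal axis) of each member in the 4 comparisons and in the interaction of breed and age, with bars for ± SE, filled points for calls and dashed lines at 1 in either direction. SYCE3 is marked as not tested in Ha vs La, and the points of both age comparisons lie above 1.

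The comparison of the breeds at 30 days asks whether the young testes of HZ and LC boars differ. Of the 9 members, 8 passed the filter on low counts in Ha vs La, and SYCE3 was not tested. SYCP2, SYCP1, SYCE2, TEX12 and HORMAD1, which are 5 of the 8, were called lower in La, where 4.01% of 15648 genes were called lower. The members' median log2 fold change was -1.39, beside 0.00 over all genes tested. SYCE2 had the largest difference at -1.87 (SE 0.25), with an edgeR adjusted p of 0.00315 and no overlap of the 6 libraries. HORMAD1 differed by -1.69 (SE 0.38; adjusted p 0.0188), TEX12 by -1.39 (SE 0.28; adjusted p 0.0133), SYCP1 by -1.38 (SE 0.39; adjusted p 0.0420) and SYCP2 by -1.29 (SE 0.29; adjusted p 0.0188), each lower in 3 of 3 La libraries. By FPKM 6 of 9 members, these 5 and SMC1B, were wholly lower in La, beside 23.9% of all genes tested, and 41.5% of all genes did not overlap in either direction. SYCE1 at -1.43 (SE 1.06; adjusted p 0.371), SMC1B at -0.65 (SE 0.20; adjusted p 0.0522) and SYCP3 at -0.58 (SE 0.47; adjusted p 0.418) were not called. The filter was passed by SYCE1 with 2 Ha libraries and 1 La library.

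The number of members called at 30 days depended on single libraries. It was 2 without Ha replicate 1, 2 without Ha replicate 2, 2 without La replicate 2 and 1 without La replicate 3. SYCE2 was called without each of the 6 libraries in turn. SYCP1 was not called without La replicate 1 either, at an edgeR adjusted p of 0.0712, and TEX12 lost its call without La replicate 3, at 0.0510. HORMAD1 had adjusted p of 0.0638, 0.0586, 0.0594 and 0.0638 without Ha replicate 1, Ha replicate 2, La replicate 2 and La replicate 3. For SYCP2 these were 0.0535, 0.0638, 0.0578 and 0.0666, and for SYCP1 0.0689, 0.139, 0.115 and 0.136. With limma on log2 of FPKM plus 1 the calls of HORMAD1, SYCP1 and SYCP2 were lost, at -0.86, -0.38 and -0.35. In Ha, SYCP1 was at or under 0.96 FPKM and SYCP2 at or under 0.86 FPKM. Their values in that setting thus could not reach a fall of 1, and their losses there were fixed in advance. SYCP2 was not called with limma on log2 of FPKM plus 0.1 either, at -0.92 and an adjusted p of 0.0545. SYCP1 was not called with the replicate block, at an edgeR adjusted p of 0.0717. The members that were not called moved too. SYCE1 was -2.01 without Ha replicate 1, at an adjusted p of 0.0561, and -0.13 without Ha replicate 3. SYCP3 was -0.22 without Ha replicate 1, -0.32 without La replicate 1 and -0.90 without Ha replicate 3. SMC1B ranged from -0.81 to -0.49.

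At 120 days the comparison asks whether the older testes of HZ and LC boars differ. In Hb vs Lb, edgeR called 0 of 9 members, where 3.85% of 16311 genes were called in either direction. That share depended on single libraries and was 0.588% without Lb replicate 2 and 6.24% without Hb replicate 2. At an unadjusted p under 0.05 there were 2 members, SYCP3 and SYCE2, beside 25.5% of all genes tested, and DESeq2 called 0. SYCE2 was lower in 3 of 3 Lb libraries, at a log2 fold change of -0.61 (SE 0.16) and an edgeR adjusted p of 0.0693. SYCP3 was higher in 3 of 3 Lb libraries, at 0.76 (SE 0.32) and an edgeR adjusted p of 0.188. The sum of SYCP3 and its X-linked relatives had 0.28 (SE 0.27) there, at an edgeR adjusted p of 0.541. By FPKM the libraries of the other 7 members overlapped, whereas by CPM HORMAD1 and SYCP1 were lower in 3 of 3 Lb libraries and 5 members overlapped. The TMM factors within this CPM were 0.834, 0.949 and 0.884 in Hb and 0.930, 0.926 and 1.03 in Lb. Whether HORMAD1 and SYCP1 part by library size alone was not tested. Over all genes tested, the libraries of Hb and Lb did not overlap for 31.8% by FPKM and 32.3% by CPM. These 7 had log2 fold changes of -0.39 for SYCP2, -0.39 for HORMAD1, -0.31 for SYCP1, -0.30 for SYCE1, -0.19 for TEX12, -0.02 for SMC1B and 0.11 for SYCE3. The signs for SYCE1, SYCE3, TEX12 and SMC1B turned when single libraries were left out: SYCE1 was 0.15 without Hb replicate 3, and without Hb replicate 2 SYCE3 was -0.035, TEX12 0.092 and SMC1B 0.010. SMC1B was also 0.069 without Hb replicate 1 and 0.073 without Lb replicate 2, and with limma on log2 of FPKM plus 1 TEX12 was 0.0036 and SMC1B 0.096. The members' median was -0.30, beside 0.00 over all genes.

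The interaction of breed and age asks whether the difference between the ages is larger in one breed, and positive values mean a larger difference in LC boars. Of 9 members, 1 was called, where 3.51% of 17332 genes were called in that direction. SYCE2 had an interaction of 1.21 (SE 0.28) on the log2 scale, with an edgeR adjusted p of 0.0275. The other 8 were positive but not called: SYCP3 1.3, HORMAD1 1.26, TEX12 1.16, SYCE1 1.09, SYCP1 1.02, SYCP2 0.84, SMC1B 0.59 and SYCE3 0.53. HORMAD1 was nearest to a call, at an edgeR adjusted p of 0.0832, and was called by DESeq2 at 1.22 with an adjusted p of 0.0312. At an unadjusted p under 0.05 there were 7 members, beside 24.1% of all genes tested, and the median was 1.09, beside 0.02 over all genes. The interaction shares its libraries with the 4 comparisons.

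With limma on log2 of FPKM plus 1 the interaction of SYCE2 was 0.78, under the threshold of 1. The SYCE2 call was lost without Ha replicate 1 (adjusted p 0.0555), Ha replicate 2 (0.0670), La replicate 1 (0.0658), La replicate 3 (0.0549), Lb replicate 1 (0.0558) and Lb replicate 2 (0.0604), by edgeR. HORMAD1 was called without Ha replicate 3, at an interaction of 1.54 and an adjusted p of 0.0342. The interaction of SYCE1 was -0.18 without Ha replicate 3.

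The summed level of the members was 17.53, 19.84 and 16.13 FPKM in Ha, 98.12, 106.04 and 95.48 FPKM in Hb, 7.75, 7.18 and 7.87 FPKM in La, and 94.23, 85.97 and 97.25 FPKM in Lb. La was below Ha in each library, whereas Hb and Lb overlapped. As group means the order was Hb at 99.9 ± 5.50, Lb at 92.5 ± 5.84, Ha at 17.8 ± 1.87 and La at 7.60 ± 0.369 FPKM, and Hb and Lb were the neighbours within their spread. Divided by the summed germ line markers, the members stood at 0.362, 0.420 and 0.422 in Ha, 0.330, 0.383 and 0.358 in Hb, 0.406, 0.352 and 0.370 in La, and 0.393, 0.381 and 0.396 in Lb. These ratios overlapped among the 4 groups, with means from 0.357 ± 0.0266 in Hb to 0.401 ± 0.0338 in Ha. Against other germ cell markers the groups differed. Divided by the summed spermatogonial markers, the members stood at 0.568 ± 0.0487 in Ha, 9.97 ± 3.03 in Hb, 0.362 ± 0.00960 in La and 6.18 ± 0.506 in Lb. Over the later spermatocyte markers they stood at 1.96 ± 0.0552, 0.139 ± 0.0350, 1.24 ± 0.0952 and 0.170 ± 0.0253 in these groups. Some members over DDX4 also differed, with means of 0.653, 0.0573, 0.389 and 0.0702 for TEX12 in these groups. Lower means at 120 days were also found for SMC1B, at 0.590, 0.0933, 0.593 and 0.129. SYCP3 had 0.114, 0.0144, 0.118 and 0.0338, and SYCE2 had 0.574, 0.167, 0.252 and 0.154. SYCE3 was higher at 120 days, with means of 0.0682, 0.134, 0.0878 and 0.203. Others differed less, with means of 0.265, 0.136, 0.135 and 0.143 for HORMAD1. SYCP1 had means of 0.0877, 0.0341, 0.0566 and 0.0385, and SYCP2 of 0.0924, 0.0498, 0.0708 and 0.0524. For SYCE1 the means were 0.0782 ± 0.0913, 0.0345 ± 0.0166, 0.0461 ± 0.0145 and 0.0390 ± 0.00883, within their spread. The part of germ cell numbers in the members' differences was not tested.

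**Figure D3:**
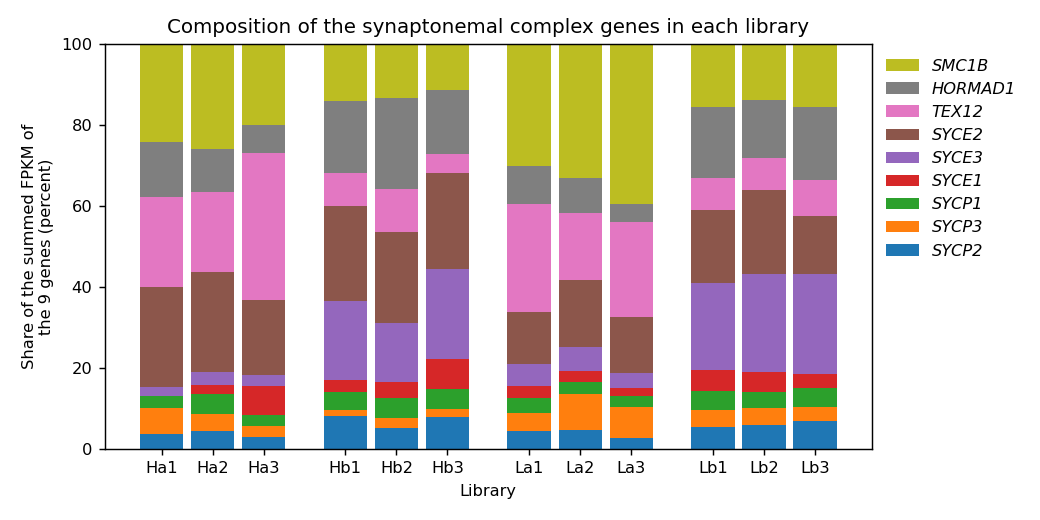
Share of each member in the members' summed FPKM (percent, vertical axis) in the 12 libraries (horizontal axis), stacked to the whole. SYCE3 holds a mean of 2.71% in Ha and 4.94% in La, and 18.8% in Hb and 23.5% in Lb.

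The makeup of the sum differed between the ages. TEX12 held a mean of 26.0% of the summed FPKM in Ha and 22.2% in La, and 7.84% in Hb and 8.14% in Lb. SMC1B held 23.4% in Ha and 34.3% in La, and 12.9% in Hb and 15.0% in Lb. HORMAD1 held 10.4% in Ha and 7.50% in La, and 18.7% in Hb and 16.7% in Lb. The most abundant member by mean FPKM was TEX12 in Ha, SYCE2 in Hb, SMC1B in La and SYCE3 in Lb.

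In Ha the order by mean level was TEX12 at 4.55 ± 1.11 FPKM, SMC1B at 4.20 ± 0.956, SYCE2 at 4.08 ± 0.996, HORMAD1 at 1.88 ± 0.656, SYCP3 at 0.803 ± 0.362, SYCP2 at 0.66 ± 0.191, SYCP1 at 0.633 ± 0.284, SYCE1 at 0.54 ± 0.596 and SYCE3 at 0.487 ± 0.136. TEX12, SMC1B and SYCE2 did not differ beyond their spread, nor did the 5 members from SYCP3 down. In La the order was SMC1B at 2.61 ± 0.442, TEX12 at 1.70 ± 0.445, SYCE2 at 1.09 ± 0.10, HORMAD1 at 0.567 ± 0.199, SYCP3 at 0.52 ± 0.165, SYCE3 at 0.373 ± 0.0808, SYCP2 at 0.30 ± 0.0781, SYCP1 at 0.243 ± 0.0404 and SYCE1 at 0.197 ± 0.0404 FPKM. From HORMAD1 down, neighbours in this order were within their spread.

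In Hb the order was SYCE2 at 23.1 ± 0.650 FPKM, HORMAD1 at 18.8 ± 4.59, SYCE3 at 18.7 ± 2.88, SMC1B at 13.0 ± 1.84, TEX12 at 7.93 ± 3.32, SYCP2 at 6.95 ± 1.41, SYCE1 at 4.75 ± 2.22, SYCP1 at 4.72 ± 0.435 and SYCP3 at 1.97 ± 0.687. Neighbours among SYCE2, HORMAD1 and SYCE3 and among the members from SMC1B to SYCP1 did not differ beyond their spread. In Lb the order was SYCE3 at 21.7 ± 1.98, SYCE2 at 16.3 ± 2.01, HORMAD1 at 15.5 ± 2.73, SMC1B at 13.9 ± 1.80, TEX12 at 7.55 ± 0.919, SYCP2 at 5.63 ± 0.890, SYCP1 at 4.15 ± 0.678, SYCE1 at 4.15 ± 0.795 and SYCP3 at 3.59 ± 0.302 FPKM. Neighbours among SYCE2, HORMAD1 and SMC1B, and those from SYCP2 down, were within their spread.

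Markers of other cells moved with age too. Of 5 later spermatocyte markers, 5 were called higher at 120 days in each breed, and of 9 spermatid markers, 9, beside 28.2% and 27.5% of all genes tested. In Ha vs La 5 of the 9 spermatid markers passed the filter on low counts. The age tests of at least the others thus depended on the 120-day libraries, and their calls add no support. The most abundant marker of each list is that by mean FPKM, and single libraries can differ. The summed later spermatocyte markers stood at 9.12, 10.25 and 7.97 FPKM in Ha, 786.91, 591.18 and 835.44 FPKM in Hb, 6.85, 5.49 and 6.14 FPKM in La, and 636.5, 520.7 and 491.48 FPKM in Lb, with LDHC, PGK2, CCNA1 and PGK2 as the most abundant. The summed spermatid markers stood at 5.72, 6.95 and 6.73 FPKM in Ha, 5279.97, 5783.72 and 7656.22 FPKM in Hb, 10.57, 9.25 and 4.53 FPKM in La, and 3905.9, 3341.56 and 3570.67 FPKM in Lb, with PRM1 the most abundant. Of the 3 germ line markers, 2 were called higher in Hb and 3 in Lb, and DAZL was called lower in La than in Ha. By mean FPKM, MAEL was the most abundant germ line marker at 30 days and DDX4 at 120 days. DAZL was above MAEL in Ha1 (22.41 and 19.20 FPKM) and in Ha2 (20.19 and 19.17 FPKM). MAEL was above DDX4 in Lb2 (108.86 and 96.83 FPKM). Spermatogonial markers went mostly the other way, with 5 of 6 called lower and 1 higher in Hb, and 4 lower and 1 higher in Lb, where 23.2% and 20.1% of all genes tested were called lower. Their sum was 33.96, 32.37 and 28.06 FPKM in Ha, 7.42, 14.68 and 10.09 FPKM in Hb, 20.81, 20.03 and 22.23 FPKM in La, and 15.84, 14.73 and 14.38 FPKM in Lb, with KIT the most abundant.

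Most somatic markers were called lower at 120 days, beside the 23.2% and 20.1% of all genes given above. Of 8 Sertoli cell markers, 4 were called lower in each breed, and their sum was 782.05, 750.65 and 973.33 FPKM in Ha, 180.86, 288.42 and 216.0 in Hb, 1507.94, 1770.49 and 1632.08 in La, and 310.82, 384.84 and 370.54 in Lb, with INHA the most abundant at 30 days and CLDN11 at 120 days. In Ha this rank rests on Ha3, as CLDN11 was above INHA in Ha1 (315.69 and 307.27 FPKM) and Ha2 (330.67 and 249.46 FPKM). Of 6 Leydig cell markers, 4 were called lower in each breed, and their sum was 5397.76, 4898.47 and 4747.67 FPKM in Ha, 2136.93, 115.11 and 53.57 in Hb, 7520.57, 5093.8 and 6047.92 in La, and 2620.22, 3965.07 and 1600.78 in Lb, with CYP17A1 the most abundant at 30 days and INSL3 at 120 days. Hb1 stood far above the other Hb libraries in the Leydig cell sum. Of 9 peritubular and stromal markers, 8 were called lower in Hb, and 5 lower and 1 higher in Lb, and their sum was 968.41, 943.29 and 971.85 FPKM in Ha, 98.01, 92.83 and 62.11 in Hb, 1330.93, 1215.95 and 1502.32 in La, and 522.1, 505.33 and 551.87 in Lb, with ACTA2 the most abundant in Hb and COL3A1 elsewhere. Of 4 endothelial markers, 4 were called lower in Hb and 3 in Lb, and their sum was 92.24, 91.2 and 80.67 FPKM in Ha, 13.62, 26.67 and 15.07 in Hb, 95.62, 76.38 and 91.04 in La, and 28.07, 45.49 and 27.94 in Lb, with VWF the most abundant. Of 5 macrophage markers, 5 were called lower in Hb and 4 in Lb, and their sum was 40.28, 32.73 and 32.58 FPKM in Ha, 3.49, 4.56 and 2.24 in Hb, 38.31, 33.03 and 36.32 in La, and 5.91, 9.64 and 9.91 in Lb, with CD163 the most abundant in Ha and CSF1R elsewhere.

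Between the breeds, 3 of 8 Sertoli cell markers were called higher in La than in Ha, where 3.60% of all genes tested were, and 1 of 5 later spermatocyte markers lower. In Hb vs Lb, 5 of 9 peritubular and stromal markers, 1 of 4 endothelial and 1 of 5 macrophage markers were called higher in Lb, and 1 of 9 spermatid markers lower, where 2.65% of all genes tested were called higher and 1.20% lower. In the interaction, 5 of 9 peritubular and stromal, 1 of 4 endothelial, 1 of 5 macrophage, 1 of 6 spermatogonial and 1 of 3 germ line markers were called positive, beside 3.51% of all genes tested. There, 2 of 9 spermatid markers were called negative, as were 1.62% of all genes tested, and no Sertoli cell, Leydig cell or later spermatocyte marker was called. No marker was at 0 in all libraries of a group. The part of these cells in the members' differences was not tested.

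In the lists that follow, 31 of 46 genes tested were called higher in Hb and 33 of 46 in Lb, beside 28.2% and 27.5% of all genes. Of these, 7 called in Hb and 8 in Lb passed the filter on low counts only with 120-day libraries. Among them were TERB2 and RNF212B in both breeds, CCDC155 and DMC1 in HZ boars, and ANKRD31, MAJIN and MEIOC in LC boars. Their calls in these comparisons add no support. Of the genes that passed on the 30-day libraries alone, 24 of 38 were called in Hb and 25 of 37 in Lb. Among 5 other axis and synaptonemal complex genes, 4 of 4 tested were called higher at 120 days in each breed, with median log2 fold changes of 3.51 in HZ boars and 4.36 in LC boars. These 4 include RAD21L1, for which 0 libraries of 30 days reached the count level of the filter in either breed. Its calls rest on the 120-day libraries and add no support. STAG3, a meiotic cohesin subunit, had means of 27.1 FPKM in Ha, 221 in Hb, 19.6 in La and 196 in Lb, and rose by 3.53 and 3.64 on the log2 scale. REC8, its kleisin partner, had means of 1.22, 27.1, 0.45 and 29.6 FPKM in these groups, and rose by 4.96 and 6.15. Of the 5 cohesin subunits of dividing somatic cells, 0 were called by edgeR or DESeq2 in either age comparison, at median log2 fold changes of -0.20 and -0.37. At an unadjusted edgeR p under 0.05 there were 3 in HZ and 4 in LC boars, beside 71.9% and 72.5% of all genes tested. SMC1A, the somatic relative of SMC1B, had a log2 fold change of -0.94 in HZ boars and -0.83 in LC boars, short of the threshold of 1.

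Of 4 partners of the HORMA proteins tested, 1 was called higher in Hb and 2 in Lb. Values for these and the further lists are log2 fold changes, and interactions are on the same scale. TRIP13 rose by 1.06 in HZ boars and had 0.47 in LC boars, but the interaction was not called, at -0.60 and an edgeR adjusted p of 0.200. The TRIP13 call was lost without Ha replicate 3, at 0.99, without Hb replicate 3, at 0.88, and with limma on log2 of FPKM plus 1 or plus 0.1, at 0.51 and 0.54. REC114, which acts in break formation, had 0.40 in HZ boars and rose by 1.40 in LC boars, with an interaction of 0.98, under the threshold of 1. With the limma settings the LC call of REC114 was lost, at 0.70 (plus 1) and 0.91 (plus 0.1). ANKRD31, its partner, had 0.86 in HZ boars and rose by 3.65 in LC boars, with an interaction of 2.77 at an edgeR adjusted p of 0.227. The ANKRD31 call was lost without La replicate 3, at an adjusted p of 0.0525, and without Lb replicate 3, at 0.0508. It was also lost with the replicate block, at 0.0694, and with limma on log2 of FPKM plus 1, where the value was 0.52. ANKRD31 was at or under 1.0 FPKM in the Lb libraries, so that limma setting could not pass the threshold. La and Lb overlapped for ANKRD31, with 0.11 FPKM in La1 and 0.07 FPKM in Lb1.

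Of 6 genes that attach telomeres to the nuclear envelope, 4 were called higher at 120 days in each breed. SPDYA, an activator of the kinase CDK2, rose by 7.25 in HZ boars and 7.40 in LC boars. TERB2 rose by 4.20 and 3.81, and CCDC155, also named KASH5, by 5.65 and 6.47. MAJIN, the membrane anchor of the telomere complex, rose by 2.74 in HZ boars and 6.0 in LC boars, with an interaction of 3.25 (SE 0.66) and an edgeR adjusted p of 0.0170. The La counts of MAJIN were 8, 3 and 6, and 0 La libraries reached the count level of the filter, so its LC fold change and interaction are uncertain in size.

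Of 17 recombination genes tested, 16 were called higher in Hb and 15 in Lb, with medians of 2.03 and 2.66. DMC1, the meiotic strand exchange protein, rose by 4.07 in each breed. MEIOB, which binds single-stranded DNA, rose by 2.84 and 2.67, and its partner SPATA22 by 3.60 and 4.69. HFM1, a helicase, rose by 1.80 in HZ boars and had 0.95 in LC boars, with an interaction of -0.87 at an edgeR adjusted p of 0.110. PSMC3IP, a DMC1 cofactor, rose by 1.52 and 3.18, and TEX11 by 1.92 and 3.77. RNF212B rose by 2.35 in Ha vs Hb and was called higher in Lb, but its La counts were at or under 3, so no fold is given there. With limma on log2 of FPKM plus 1 the HZ calls of PSMC3IP, TEX11 and RNF212B were lost, at 0.83, 0.82 and 0.76.

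Of 6 genes of signalling from unsynapsed axes, 3 were called higher in Hb and 5 in Lb. MDC1 rose by 2.26 and 2.02 and ATRIP by 3.12 and 2.63. BRCA1 had 0.80 in HZ boars and rose by 1.41 in LC boars, with an interaction of 0.59 at an edgeR adjusted p of 0.129. With limma on log2 of FPKM plus 1 BRCA1 was 0.89 in LC boars, under the threshold. The histone H2AX gene LOC100522201 had 0.87 and rose by 1.87, with an interaction of 0.99 at an adjusted p of 0.0991. Of 4 meiotic entry genes tested, 3 were called higher in each breed. These include STRA8, for which only 1 Ha library and 1 La library reached the count level of the filter. For MEIOC, 2 La libraries reached it. The calls of STRA8 in both breeds and of MEIOC in LC boars thus rest on the libraries of the older boars and add no support. MEIOC, which holds cells in meiotic prophase, rose by 4.80 and 5.70. YTHDC2, its partner, rose by 1.11 in HZ boars and had 0.88 in LC boars, with an interaction of -0.25 at an adjusted p of 0.445. The HZ call of YTHDC2 was lost with limma, at 0.54 (plus 1) and 0.61 (plus 0.1). DAZL, an RNA-binding protein of germ cells that is also a germ line marker here, had 0.75 in HZ boars and rose by 2.30 in LC boars.

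Between the breeds at 30 days, 6 of the 43 genes of these lists tested were called, beside 4.01% of all genes called lower in La. Each was lower in La: REC114 at -1.14, MAJIN at -2.84, SPATA22 at -1.80, PSMC3IP at -1.23, TEX11 at -1.99 and DAZL at -1.66. The count was 3 without Ha replicate 2, 11 without Ha replicate 3 and 3 without La replicate 3. REC114, SPATA22 and DAZL were called without each of the 6 libraries. MAJIN was tested there through the Ha libraries. MAJIN was not called without Ha replicate 2, La replicate 2 or La replicate 3, at edgeR adjusted p of 0.0514, 0.0598 and 0.0641. PSMC3IP was called only without Ha replicate 3, with adjusted p from 0.0625 to 0.102 without Ha replicates 1 or 2 or La replicates 1, 2 or 3. TEX11 was not called without Ha replicate 1, Ha replicate 2, La replicate 1 or La replicate 3, at adjusted p from 0.0652 to 0.0770. With limma on log2 of FPKM plus 1 the calls of REC114, MAJIN, PSMC3IP and TEX11 were lost, at -0.95, -0.84, -0.76 and -0.57, and PSMC3IP was not called with the replicate block, at an adjusted p of 0.0578. At Ha levels of 0.86, 1.13 and 0.4 FPKM, TEX11 could not reach a mean fall of 1 in that limma setting.

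At 120 days edgeR called 0 of 46 list genes tested, beside 3.85% of all genes, with 9 at an unadjusted p under 0.05, beside 25.5% of all genes, and DESeq2 called 1, and without Hb replicate 2 edgeR called 1. In the interaction 5 of 47 were called, beside 3.51% of all genes in that direction, all positive: MAJIN, SPATA22, PSMC3IP, RNF212B and DAZL. That count was 2 without Ha replicate 1, Ha replicate 2, Hb replicate 3, La replicate 2, La replicate 3, Lb replicate 2 or Lb replicate 3, 3 without La replicate 1 or Lb replicate 1, and 9 without Ha replicate 3.

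Patterns over the 12 libraries were compared by the root mean square difference of log2 CPM, each gene centred on its mean, among 16633 genes. The genes nearest to the members' mean were NUTM1 at 0.190, MAEL at 0.210, TES at 0.227, PTTG1 at 0.241 and DNAAF4 at 0.248, beside a median of 1.96 over all candidates. The nearest gene to SMC1B was PBK at 0.138, to SYCE3 LOC100153697 at 0.223, to SYCE2 IPO4 at 0.241 and to HORMAD1 C6H19orf18 at 0.249. For SYCP3 it was GPR37 at 0.269, for SYCP1 PLK1 at 0.288, for TEX12 LOC110255214 at 0.297 and for SYCE1 PTPN20 at 0.564. Among the members, SYCP1 and SYCP2 were the closest pair at 0.259, and TEX12 and SYCE3 the farthest at 1.96.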

How the data were processed

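RNA of 12 testis libraries was sequenced in pairs of 150 bases. The authors trimmed reads with fastp 0.18.0, removed ribosomal reads with Bowtie2 2.2.8, mapped to Sscrofa11.1 with HISAT2 2.1.0 and assembled with StringTie 1.3.4. The deposited coding-gene table gives each library an estimated count and an FPKM value, and the deposited table of lncRNA transcripts gives FPKM, which the authors calculated with StringTie. The libraries were strand-specific. The tool that made the counts was not stated.

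The members and lists were chosen with earlier results of these data known. Counts were rounded to whole numbers, filtered with filterByExpr (minimum count 10), scaled by TMM and fitted with edgeR 4.0.16 (glmQLFit) in R 4.3.3 for each pair of groups, and over all 12 libraries for the interaction of breed and age. P-values were two-sided and adjusted by Benjamini-Hochberg over all genes tested. The SE is the log2 fold change over the root of F. The code was tested on simulated data. Python 3.11.15 with numpy 2.4.6, pandas 2.3.3 and matplotlib 3.10.9 made tables and figures.

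The lists were other axis and synaptonemal complex genes, partners of the HORMA proteins, telomere attachment, recombination, signalling from unsynapsed axes, meiotic entry and somatic cohesin, and markers of germ line, spermatogonia, later spermatocytes, spermatids, Sertoli, Leydig, peritubular and stromal, endothelial cells and macrophages. Named genes were each member; of each pathway list the 2 called genes with the smallest adjusted p per age comparison and direction; list genes called in Ha vs La, Hb vs Lb, the interaction or only 1 age comparison; and the genes nearest in pattern. Overlapping genes, SYCP3-like genes, SMC1A, RAD21L1, C1H9orf84 and STRA8 were named outside this rule, after their values were seen. Alternatives were DESeq2 1.42.0, RLE factors, no filter, limma 3.58.1 on log2 of FPKM plus 1 or 0.1, all libraries in 1 fit, a replicate block and leaving out each library.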

Additional observations from a re-analysis of the deposited data

Results flagged for a closer look

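In the test of the interaction of breed and age, which asks whether the difference between 30 and 120 days differs between HZ and LC boars, 1 of 9 members and 5 of 47 genes of the pathway lists were called, beside 3.51% of 17332 genes called in the same direction. Each value is on the log2 scale and positive where the difference was larger in LC boars. SYCE2 had an interaction of 1.21, but its call was lost without 6 of the 12 libraries in turn, at adjusted p from 0.0549 to 0.0670, and with limma on log2 of FPKM plus 1, at 0.78. MAJIN had 3.25, but 1.39 with limma on log2 of FPKM plus 1 and 2.78 with plus 0.1, each called. DAZL had 1.53, and 1.53 and 1.67 in those settings. The La counts of MAJIN were 8, 3 and 6, and it was tested through the other groups, so the size of its value is uncertain. PSMC3IP had 1.64, and 1.28 and 1.73 there, and SPATA22 1.08. RNF212B had 3.17, a value that depends on La counts at or under 3. With limma it was not called, at 0.26 on log2 of FPKM plus 1 (adjusted p 0.435) and 1.44 with plus 0.1 (adjusted p 0.107).

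MAJIN and DAZL were called in edgeR without each of the 12 libraries in turn. SPATA22 was called only without Ha replicate 3 and without Hb replicates 1 or 2, with adjusted p from 0.0614 to 0.0927 in the other 9 cases. It was not called with the replicate block either, at an adjusted p of 0.0582, nor with limma on log2 of FPKM plus 1, at 0.75 and an adjusted p of 0.0738. PSMC3IP was not called without Ha replicates 1 or 2, Hb replicate 3, La replicates 2 or 3, or Lb replicates 2 or 3, at adjusted p from 0.0503 to 0.0698. RNF212B was called only without Ha replicate 3 or Hb replicate 2, with adjusted p from 0.0532 to 0.112 in the other 10 cases.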

How the results depend on the processing

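Over 14 alternatives, the members called in Ha vs Hb numbered 7 to 9. Between La and Lb they numbered 9 in each. Without single libraries they ranged from 8 to 9 in Ha vs Hb, from 1 to 5 in Ha vs La, 0 in Hb vs Lb and from 0 to 2 in the interaction. In Ha vs La limma on log2 of FPKM plus 1 called 2, but SYCP1 and SYCP2 were too low in Ha to reach the threshold in that setting. In the interaction DESeq2 called 2 and limma on log2 of FPKM plus 1 called 0. With the replicate block 9, 9, 4, 0 and 1 members were called, although the replicate numbers did not pair libraries, with correlations from -0.0222 to 0.0527. The cause of each change was not tested.

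Signs turned in Hb vs Lb for SMC1B, at 0.10 with limma on log2 of FPKM plus 0.1, 0.096 with plus 1 and from -0.12 to 0.073 without single libraries. TEX12 turned at 0.014 and 0.0036 in those limma settings and ranged from -0.46 to 0.092 without single libraries. SYCE1 ranged from -0.54 to 0.15 and SYCE3 from -0.035 to 0.25. In the interaction SYCE1 ranged from -0.18 to 1.73.

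The limma settings moved the median of all genes by -0.24 (plus 1) and -0.42 (plus 0.1) in Ha vs Hb, -0.16 and -0.26 between La and Lb, 0.070 and 0.12 in Hb vs Lb, and 0.073 and 0.17 in the interaction.

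For the pathway lists and the summed SYCP3 genes the alternatives were chosen after seeing the data. The lists had 22 genes called in Ha vs Hb and 29 between La and Lb with limma on log2 of FPKM plus 1, and without single libraries 29 to 31 and 32 to 34. They had 2 genes called in Ha vs La and 3 in the interaction with limma on log2 of FPKM plus 1, and 1 in Hb vs Lb with DESeq2 and 1 with all 12 libraries. In these comparisons the counts without single libraries ranged from 3 to 11, 2 to 9 and 0 to 1. The share of all genes called in Hb vs Lb ranged from 0.588% (without Lb replicate 2) to 7.26% (all 12 libraries), with 0.944% with the replicate block. For genes lower in La it was 1.79% with limma on log2 of FPKM plus 1, and in the positive direction of the interaction it ranged from 1.86% (without Ha replicate 1) to 6.15% (limma, plus 0.1). Low counts at 30 days limit SYCE1, SYCE3, SYCP3, MAJIN and RNF212B.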
